A study of Mus musculus with 9 samples.

Results

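The insulin-like growth factor (IGF) family was described in the mouse hippocampus as 10 genes: the ligands Igf1 and Igf2, the receptors Igf1r and Igf2r, and the binding proteins Igfbp2 to Igfbp7. The genes were chosen by symbol from a table of 18275 genes, and all 10 were among the 16196 genes with a mean normalised count of at least 10 that were tested. The choice was made with results of the same comparison known, so the fits given for the members describe them and do not support the choice.

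RNA was sequenced from the hippocampus of adult male C57BL/6N mice, 1 library an animal. The 4 Nestin;BrafKE/+ mice carry 1 Braf allele with the K499E substitution, a gain of function, switched on by Nestin-Cre in the stem cells of the neural lineage, and hence in their neuronal and macroglial progeny. The 5 Braf+/+ controls are labelled as wild type (WT), and the sources do not say of these animals whether any carried Nestin-Cre alone. The comparison asked which transcripts differ when BRAF is overactive in the neural lineage.

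IGF1 and IGF2 are small secreted proteins that act through IGF1R, a receptor tyrosine kinase upstream of both the PI3K-AKT and the RAS-RAF-ERK cascades. IGF2R has no kinase and takes IGF2 into the cell for breakdown. The binding proteins hold the ligands in the extracellular space and either keep them from the receptor or release them near it, and proteases set how long each binding protein lasts. In the adult brain, Igf1 is made by neurons and glia at low level, whereas Igf2 and Igfbp2 are made largely by the choroid plexus and the meninges.

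Of the 10 members, 3 had an adjusted p under 0.05, Igfbp4 and Igfbp6 with higher and Igfbp5 with lower values in Nestin;BrafKE/+. Over all genes tested 466 were called, a background of 2.88% (1.52% higher and 1.36% lower). The mutant and control libraries were fully apart for 5 members (Igf1, Igf2r, Igfbp4, Igfbp5 and Igfbp6), beside 15.7% of all genes tested. Since the members were picked with this comparison in view, nothing is read from these counts.

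The sequences just before the start sites of the 3 called binding proteins are shown because these are the members past the threshold. Each runs 250 bases up to the start of the gene's canonical transcript, 5′ to 3′ on the gene's own strand, on GRCm39. Capitals mark the TATA motif (TATAAA on either strand), the only one of 6 motifs searched that was found in them.
Igfbp4 (chr11:98931814-98932063, plus strand): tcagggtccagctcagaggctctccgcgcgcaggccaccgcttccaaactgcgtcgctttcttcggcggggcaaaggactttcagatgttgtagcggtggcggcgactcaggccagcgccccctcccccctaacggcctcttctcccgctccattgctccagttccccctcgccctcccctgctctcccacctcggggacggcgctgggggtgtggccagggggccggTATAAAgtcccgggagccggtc
Igfbp5 (chr1:72914044-72914293, minus strand): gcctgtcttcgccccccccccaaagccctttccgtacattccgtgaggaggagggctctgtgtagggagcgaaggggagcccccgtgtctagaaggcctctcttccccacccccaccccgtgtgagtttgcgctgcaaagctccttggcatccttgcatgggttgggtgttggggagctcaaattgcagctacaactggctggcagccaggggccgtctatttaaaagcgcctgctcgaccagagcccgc
Igfbp6 (chr15:102052447-102052696, plus strand): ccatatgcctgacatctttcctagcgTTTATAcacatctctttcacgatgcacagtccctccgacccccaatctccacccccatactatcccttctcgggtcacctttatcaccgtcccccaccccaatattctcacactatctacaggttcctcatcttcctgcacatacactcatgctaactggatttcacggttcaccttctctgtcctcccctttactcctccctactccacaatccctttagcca
The Igfbp4 window held the motif 22 to 17 bases before the start, on the gene's strand. In the Igfbp6 window it lay 224 to 219 bases before the start, on the opposite strand, and the Igfbp5 window held none. TATAAA was found in 11.9% of the 21757 windows of the same length and place before protein-coding genes. Searches on both strands for AP-1 (TGANTCA, in 6.18% of all windows), ETS (CCGGAA, 12.4%), FOXO (GTAAACA, 2.72%), CRE (TGACGTCA, 1.7%) and Sp1 (GGGCGG, 36.3%) gave no match in these 3 windows. None of these searches bears on binding of a factor. GC content was 68.4% in the Igfbp4 window, 62% in that of Igfbp5 and 50% in that of Igfbp6, with 21, 11 and 6 CpG dinucleotides. Sp1 matches were found before Igf2, Igf1r, Igf2r, Igfbp2 and Igfbp7.

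By the way the libraries are named they form 3 series (A, B and C). Series A had 1 mutant library (replicate 1) beside control replicates 1 to 3. In series B there were 2 mutant libraries (replicates 2 and 3) and 1 control (replicate 4), while series C held the last mutant (replicate 4) and the last control (replicate 5). Values are normalised counts, already adjusted for batches by the authors, with library totals from 19551300 to 20091500. Differences are on the log2(normalised count + 1) scale, from a limma fit over all genes tested with genotype and series as terms, with p-values adjusted by the Benjamini-Hochberg method. The Braf allele differs by a codon, so expression values do not check the genotype labels. Prox1, a marker of the granule neurons of the dentate gyrus, was at 1937 ± 73.6 in the mutant and 2002 ± 79.1 in the control, as the tissue label calls for. Dsp, also on the list of hippocampal excitatory neuron markers, was lower in the mutant, at 456 ± 71.3 against 778 ± 79.4 (limma adjusted p = 0.0106). Braf+/+ replicates 2 and 4 stood apart in choroid plexus genes. Ttr, the transthyretin gene that defines this epithelium, was at 381593 and 106681 in these libraries, beside 928 to 22373 in the other 7.

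**Figure D1:**
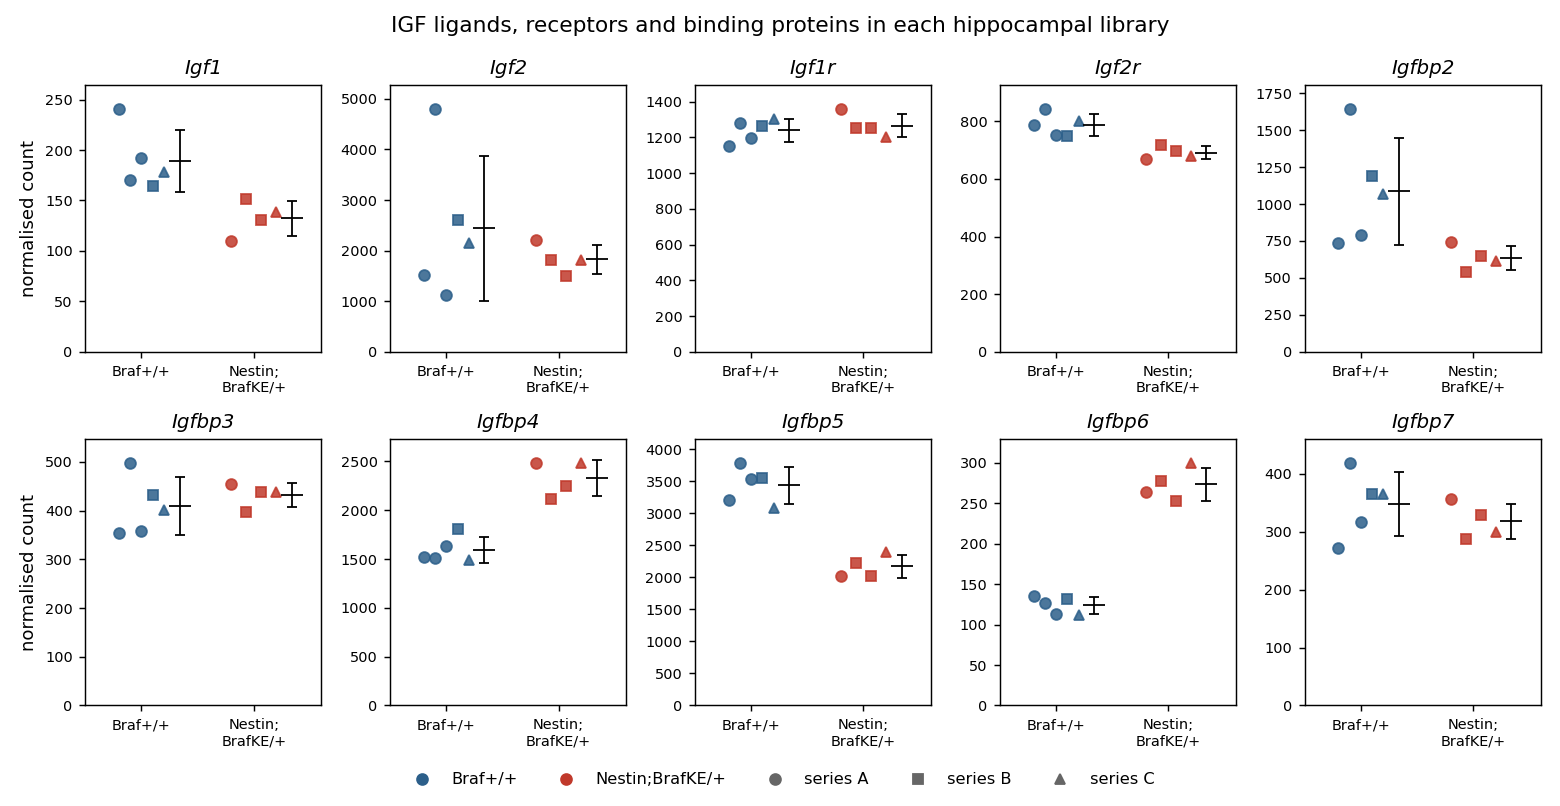
Normalised count (vertical axes, from 0) of each member in the 5 Braf+/+ libraries (blue) and the 4 Nestin;BrafKE/+ libraries (red). Symbol shapes give the series, and black bars give the group mean with 1 SD. The groups do not overlap for Igf1, Igf2r, Igfbp4, Igfbp5 and Igfbp6, with the narrowest gaps for Igf1 (151 to 165) and Igf2r (719 to 749), and the widest spread is that of Igf2 in Braf+/+, from 1116 to 4796.

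Igf1 (chr10:87693642-87772904, plus strand) was low in both groups. Its normalised counts were 241, 170, 192, 165 and 178 in Braf+/+ replicates 1 to 5, and 109, 151, 131 and 139 in Nestin;BrafKE/+ replicates 1 to 4. Every mutant library was below every control library, though the gap between the groups was only that from 151 to 165. The mean was 132 ± 17.5 (SD, n = 4) against 189 ± 30.5 (SD, n = 5), a log2 difference of -0.51 (SE 0.16, limma adjusted p = 0.122), and did not pass the threshold. Series A gave -0.86, series B -0.23 and series C -0.36. Without the series term the same gene passed, with an adjusted p of 0.0234, and without Nestin;BrafKE/+ replicate 1, its lowest library, the difference was -0.28 (limma adjusted p = 0.471).

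Igf2 (chr7:142204503-142220694, minus strand), an imprinted gene read from the paternal allele in most tissues, had the widest spread of the family. The Braf+/+ values were 1524, 4796, 1116, 2605 and 2157, a range of 4.30-fold, and those of Nestin;BrafKE/+ were 2206, 1812, 1503 and 1811. Both the highest and the lowest values of the study belonged to Braf+/+ libraries of series A, and the groups overlapped. The log2 difference was -0.24 (SE 0.36, limma adjusted p = 0.766, 95% interval from -1.04 to 0.56), so a difference of either sign was possible at this spread. Series A gave 0.13, whereas series B and C gave -0.66 and -0.25. The spans of the predicted gene Gm49394 and of Mir483 overlap that of Igf2 on the same strand. Exons were not compared, so whether some Igf2 reads cannot be assigned with certainty was not tested.

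The 2 Braf+/+ libraries with the highest Igf2 were the same 2 that stood apart in choroid plexus genes. All 14 choroid plexus genes had lower fitted values in Nestin;BrafKE/+, and 0 of them passed the threshold. In the limma fit 5 were under 0.05 before adjustment, beside 18.5% of all genes tested. The 14 genes share the same libraries and are not separate observations. Their summed value ran from 1626 to 25485 in Nestin;BrafKE/+ and from 5104 to 397315 in Braf+/+. The list level, which averages each gene's deviation from its own mean on the log2 scale, was 2.80 in Braf+/+ replicate 2, 1.96 in replicate 4 and between -0.997 and 0.21 in the other 3 controls. In the mutant it was 0.06, -2.47, -0.48 and -0.36 in replicates 1 to 4. The 2 groups differed by -1.46 in this level (two-sided exact permutation within series, p = 0.292, 24 splits, adjusted over 10 cell type lists p = 0.365). Without those 2 control libraries the Igf2 difference became 0.32 (limma adjusted p = 0.566), that is, its sign turned. Replicate 4 was the only control of series B, so this fit compared the genotypes within series A and C only. The part of choroid plexus RNA in that turn was not tested. In bulk tissue, fewer cells of a type cannot be told apart from less RNA in each cell.

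The 3 genes whose pattern over the 9 libraries was most like that of Igf2, out of 13230 genes with a mean of at least 50, were Slc39a9 (Pearson r = 0.98), Slc13a4 (r = 0.97) and Enpp5 (r = 0.96). Slc13a4, a sulfate transporter on the list of meningeal genes, was at 1005 in Braf+/+ replicate 2 and 420 in replicate 4, beside 117 to 318 in the other libraries. The level of the whole list of meninges and fibroblasts was 0.83 in Braf+/+ replicate 2 but -0.24 in replicate 4. In the other libraries it ran from -0.73 to 0.47. For Igf1 the 3 most alike were Susd6, Zadh2 and Camk2b, each with r = 0.98. Camk2b, a subunit of the main calcium/calmodulin kinase of synapses, ran from 17260 to 18979 in the mutant and from 19309 to 22762 in the controls. These points share libraries and the difference between the groups, and the correlations are given only as descriptions of 9 libraries.

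Igf1r (chr7:67601518-67883416, plus strand), the signalling receptor, was nearly level. It ran from 1202 to 1358 in Nestin;BrafKE/+ and from 1152 to 1305 in Braf+/+, and the log2 difference was 0.03 (SE 0.07, limma adjusted p = 0.844). The 95% interval of the ratio ran from 0.924 to 1.13. The within-series differences were 0.17, -0.01 and -0.12, and the sign of the fit turned when Nestin;BrafKE/+ replicate 1 was left out (-0.06). The spans of the predicted lncRNA genes Gm73244 and Gm65010 overlap those of Igf1r and Igf2r on the same strand. Exons were not compared, so whether any reads of the receptors are uncertain was not tested.

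Igf2r (chr17:12901293-12988614, minus strand), the clearance receptor, had values of 670, 719, 697 and 679 in Nestin;BrafKE/+ and of 789, 842, 754, 749 and 802 in Braf+/+. No mutant library reached a control library, and the spread within each group was small, at 1.07-fold and 1.12-fold from lowest to highest. The log2 difference was -0.19 (SE 0.07, limma adjusted p = 0.169), a ratio of 0.878, and did not pass the threshold with the series term. Within the series it was -0.25, -0.08 and -0.24. In the fit without the series term the adjusted p was 0.0259. Airn, the antisense RNA that overlaps Igf2r and takes part in its imprinting, was near the minimum for testing, with means of 14.7 and 15.6.

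Igfbp2 (chr1:72863606-72891634, plus strand), a binding protein abundant in cerebrospinal fluid, had the lowest fitted difference of the family, with a wide interval. Nestin;BrafKE/+ libraries were at 740, 538, 646 and 612, and Braf+/+ libraries at 739, 1641, 789, 1188 and 1071. The groups met at their edge, with mutant replicate 1 level with control replicate 1. The log2 difference was -0.72 (SE 0.22, limma adjusted p = 0.120) and its 95% interval ran from -1.22 to -0.23. It had the same sign in each series, at -0.41, -1.01 and -0.81. The 2 highest values were again those of Braf+/+ replicates 2 and 4, the libraries with the most choroid plexus RNA, and without them the difference was -0.37 (limma adjusted p = 0.376). That fit, too, compared the genotypes within series A and C only. Without the series term the gene passed, at 0.0339.

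**Figure D2:**
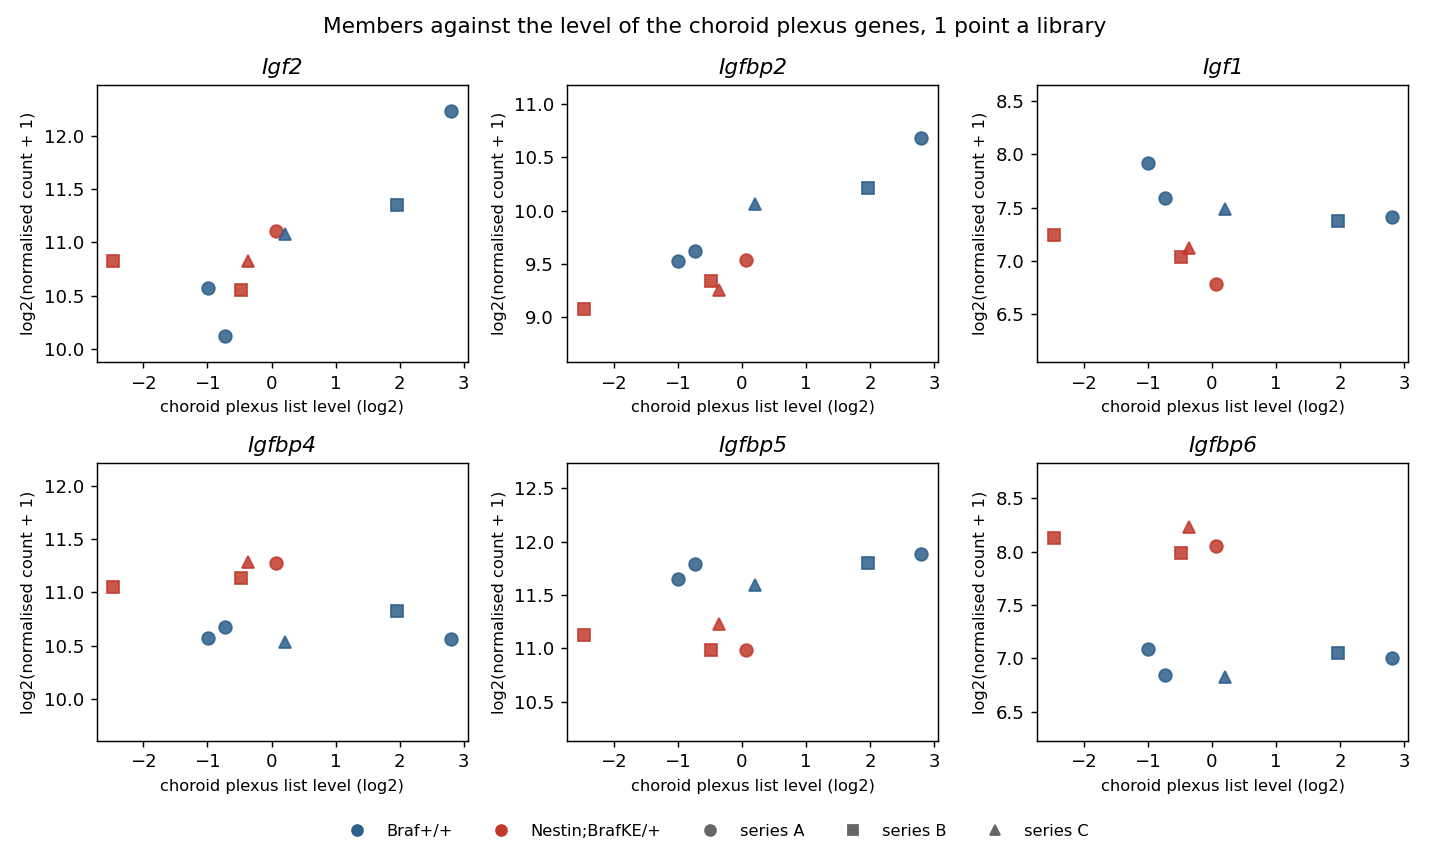
Log2(normalised count + 1) of 6 members (vertical axes, each spanning the same log2 distance) against the level of the choroid plexus list (horizontal axes, log2 relative to the mean), 1 point a library, coloured by group with shapes for the series. Igf2 and Igfbp2 are highest in the 2 Braf+/+ libraries at 1.96 and 2.80, whereas for Igfbp4, Igfbp5 and Igfbp6 the groups do not overlap on the vertical axis.

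Igfbp5 (chr1:72897091-72914043, minus strand) lies next to Igfbp2, 5456 bases away and pointing towards it, with 0 annotated genes starting between them. IGFBP5 binds the extracellular matrix as well as the ligands. Its normalised counts were 3206, 3787, 3533, 3552 and 3089 in Braf+/+ and 2022, 2229, 2027 and 2402 in Nestin;BrafKE/+. The groups were well apart, with the highest mutant library at 2402 and the lowest control at 3089. The mean of 2170 ± 182 (SD, n = 4) against 3433 ± 283 (SD, n = 5) gave a log2 difference of -0.66 (SE 0.08, limma adjusted p = 0.00324), a ratio of 0.632 with a 95% interval from 0.558 to 0.716. The within-series differences were -0.79, -0.74 and -0.36, the smallest being that of series C, with 1 library a group. The 2 neighbours thus both had lower values in the mutant, Igfbp5 with a far smaller spread. Leaving out both Braf+/+ libraries high in choroid plexus genes gave -0.58 with an adjusted p of 0.0550, in a fit with no control of series B.

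Igfbp4 (chr11:98932064-98945218, plus strand) encodes a binding protein that mostly restrains IGF action and is cut by the protease PAPP-A. Its values were 2482, 2112, 2245 and 2487 in Nestin;BrafKE/+, and 1524, 1506, 1630, 1812 and 1486 in Braf+/+. All 4 mutant libraries exceeded all 5 controls. The mean of 2331 ± 185 (SD, n = 4) against 1592 ± 135 (SD, n = 5) gave a log2 difference of 0.55 (SE 0.08, limma adjusted p = 0.00783), a ratio of 1.46 with a 95% interval from 1.29 to 1.66. Series A and C gave 0.68 and 0.74 and series B 0.27, where the lone control, at 1812, was the highest of its group.

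Igfbp6 (chr15:102052697-102057953, plus strand), whose product prefers IGF2 over IGF1, had the largest difference of the family. Its values were 135, 127, 114, 132 and 112 in Braf+/+ and 264, 278, 253 and 300 in Nestin;BrafKE/+. The lowest mutant library, at 253, lay far above the highest control, at 135. Means were 274 ± 20.5 (SD, n = 4) and 124 ± 10.5 (SD, n = 5), a log2 difference of 1.14 (SE 0.12, limma adjusted p = 0.00177) and a ratio of 2.20 with a 95% interval from 1.83 to 2.64. Within the series it was 1.07, 1.01 and 1.41. By p it ranked 12 of all genes tested, with Igfbp5 at 30 and Igfbp4 at 71. The members were chosen with this comparison known, so the ranks only describe them.

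Igfbp3 and Igfbp7 did not separate the groups. Igfbp3 (chr11:7156086-7164179, minus strand), the main carrier of IGFs in blood, ran from 397 to 454 in Nestin;BrafKE/+ and from 355 to 498 in Braf+/+, with a log2 difference of 0.09 (SE 0.12, limma adjusted p = 0.734). Igfbp7 (chr5:77493130-77555931, minus strand), which binds IGFs weakly and is typical of blood vessels, ran from 288 to 356 and from 272 to 419, with a difference of -0.12 (SE 0.14, adjusted p = 0.691). Both were highest in Braf+/+ replicate 2. Without both controls high in choroid plexus genes, and so with no control of series B, the Igfbp7 difference was 0.03, that is, of the opposite sign.

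**Figure D3:**
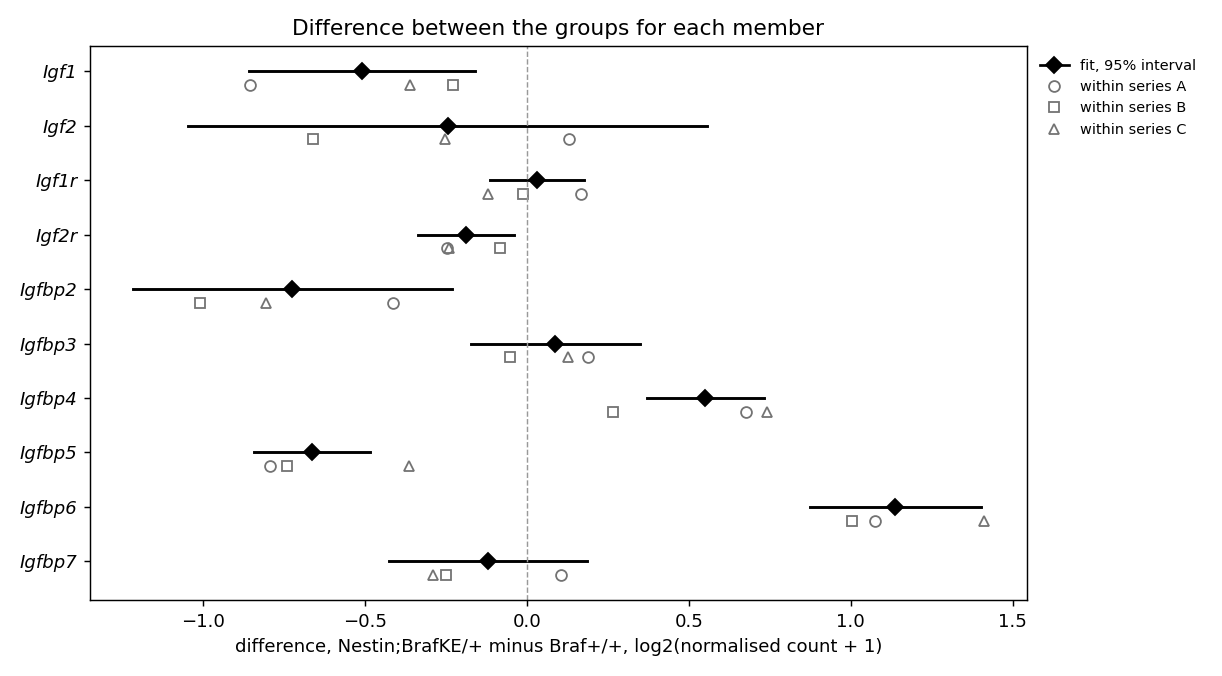
Difference between the groups for each member (horizontal axis, Nestin;BrafKE/+ minus Braf+/+ on the log2(normalised count + 1) scale). Diamonds and bars give the fit with its 95% interval, and open symbols give the difference within series A, B and C. Igfbp4 and Igfbp6 lie above 0 and Igfbp5 and Igfbp2 below 0 in every series, while Igf2, Igf1r, Igfbp3 and Igfbp7 have series on both sides.

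The direction was the same in all 3 series for 6 of the 10 members (Igf1, Igf2r, Igfbp2, Igfbp4, Igfbp5 and Igfbp6), beside 36.6% of all genes tested. Of these, 4 were lower in the mutant in each series (Igf1, Igf2r, Igfbp2 and Igfbp5), beside 18.2% of all genes tested. The calls rested most on Nestin;BrafKE/+ replicate 1, the only mutant library of series A. Without it, the genotype was compared within series B and C only, and the adjusted p was 0.0862 for Igfbp4, 0.0569 for Igfbp5 and 0.0235 for Igfbp6, while the number of genes called fell from 466 to 42. In each of the other 8 fits that left out 1 library, all 3 stayed past the threshold.

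Levels of different genes were compared per kilobase (kb) of the canonical transcript. In Braf+/+ the order was Igfbp2 at 822, Igf2 at 658, Igfbp5 at 572, Igfbp4 at 415, Igfbp3 at 151, Igfbp6 at 102, Igf1r at 99.5, Igf2r at 87.9, Igfbp7 at 65.2 and Igf1 at 26.7 normalised counts per kb. Neighbours whose ranges over the libraries overlapped were Igfbp2 and Igf2, Igf2 and Igfbp5, Igfbp6 and Igf1r, and Igf1r and Igf2r. In Nestin;BrafKE/+ the order was Igfbp4 at 608, Igf2 at 494, Igfbp2 at 480, Igfbp5 at 361, Igfbp6 at 225, Igfbp3 at 160, Igf1r at 102, Igf2r at 77.2, Igfbp7 at 59.6 and Igf1 at 18.7. Here the ranges of Igfbp4 and Igf2 overlapped, as did those of Igf2 and Igfbp2, and the other neighbours were separate. Igf1, the ligand best known in the adult brain, was thus the lowest member in both groups, and Igfbp6 stood above Igfbp3 in the mutant but below it in the control. Reads of shorter transcripts, which Igf1 in particular has, would be divided by too great a length, so these levels are approximate.

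The makeup of the binding protein transcripts was read as shares of their sum per kb. This sum over all 6 was 1893 ± 112 in Nestin;BrafKE/+ (SD, n = 4) and 2127 ± 342 in Braf+/+ (SD, n = 5), with overlapping ranges of 1759 to 1995 and 1784 to 2633. Igfbp4 made up 32.1% ± 0.67 of that sum in the mutant and 19.9% ± 3.07 in the control. The share of Igfbp5 was 19.1% ± 1.91 and 27.2% ± 3.09, and that of Igfbp6 was 11.9% ± 1.00 and 4.86% ± 0.83. Igfbp2 held 25.3% ± 2.39 and 37.9% ± 6.64. For these 4 genes and for Igfbp3, at 8.44% ± 0.26 and 7.12% ± 0.20, the shares did not overlap between the groups, and for Igfbp7 they did. The ratio of Igfbp4 to Igfbp5 normalised counts ran from 0.947 to 1.23 in the mutant and from 0.398 to 0.510 in the control. These shares come from the members' own values and are no separate evidence. The values of Igfbp2 and Igfbp3 themselves overlapped between the groups, and each share also moves with the other genes of the sum.

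**Figure D4:**
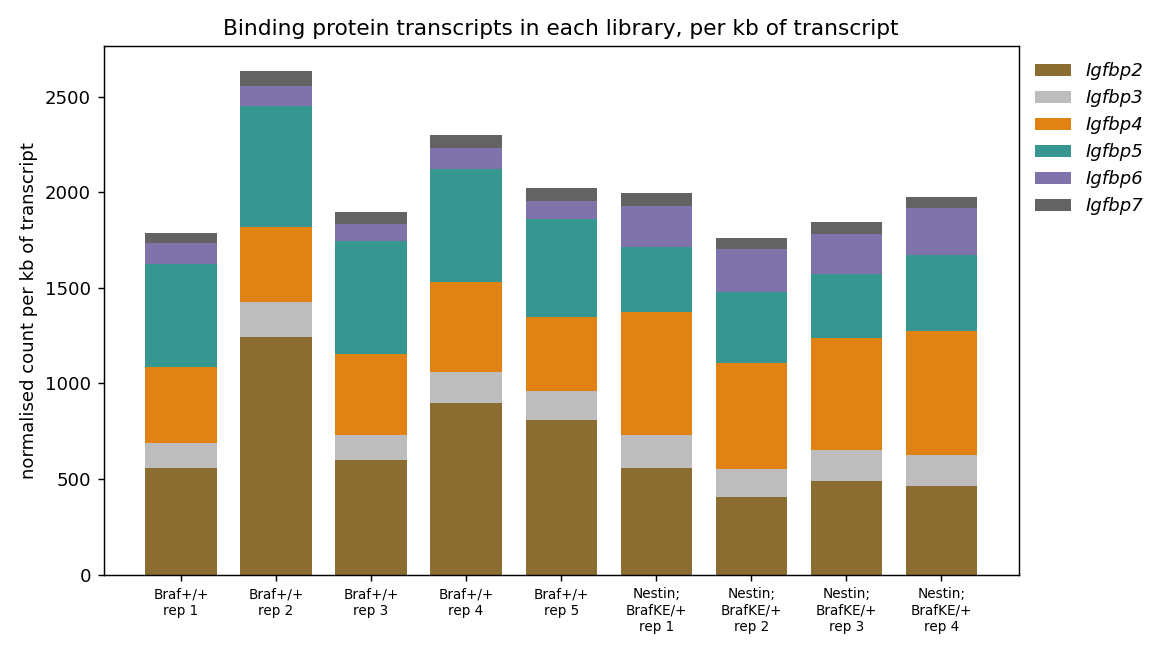
Normalised counts per kb of transcript (vertical axis, from 0) of the 6 binding proteins, stacked, in each of the 9 libraries. The Igfbp4 and Igfbp6 segments are taller and the Igfbp5 segment shorter in the 4 Nestin;BrafKE/+ libraries, and the tallest bar, 2633 in Braf+/+ replicate 2, is 47.2% Igfbp2.

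Markers of the cell types that make these proteins were read beside them. The level of the astrocyte list was between 0.09 and 0.17 in the mutant and between -0.13 and -0.06 in the control (two-sided exact permutation within series, p = 0.0417, the smallest that 24 splits allow, adjusted over the 10 cell type lists p = 0.139), and 3 of its 10 genes passed the threshold, all higher. The list level of oligodendrocyte genes was between 0.10 and 0.26 against between -0.33 and 0.03 (two-sided exact permutation within series, p = 0.0417, adjusted p = 0.139). Of the 10 genes 4 were called, all higher. Over all genes tested, the share called was 2.88%. Summed values of the astrocyte list ran from 114009 to 127692 and from 106833 to 120540, and those of the oligodendrocyte list from 129016 to 139159 and from 94429 to 114552. Neuronal lists were read in the same way. The interneuron list level was between 0.03 and 0.21 in the mutant and between -0.19 and -0.0069 in the control (two-sided exact permutation within series, p = 0.0417, adjusted p = 0.139), as fully apart as the astrocyte list, with 1 of 12 genes called, higher. Among markers of hippocampal excitatory neurons 4 of 12 were called, 2 higher and 2 lower, and the list levels overlapped, from -0.10 to 0.07 and from -0.03 to 0.09 (exact permutation p = 0.208). For mural cells 1 of 10 genes was called and for meninges and fibroblasts 1 of 13, both higher. In the limma fit 0 were called of 10 endothelial, 10 microglial and 8 thalamic genes. Before adjustment 1, 3 and 0 of them were under 0.05, beside 18.5% of all genes tested. The thalamic list level was 0.22 and 0.20 in Nestin;BrafKE/+ replicates 1 and 3, beside -0.17 to 0.06 in the other libraries. The list of meninges and fibroblasts, cells that make Igf2, had summed values from 3021 to 3854 in the mutant and from 2032 to 5691 in the control. None of the 18275 genes was at 0 in any library, so the lack of 0 values among these markers tells nothing of their detection. The part of these cell types, and of the choroid plexus, in the members' differences was not tested.

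Downstream of the receptors, 33 genes of IGF and insulin receptor signalling were listed and 32 were tested. Of these 5 passed the threshold (15.6%, beside 2.88% of all genes tested), 2 higher and 3 lower, and the median log2 difference of the list was -0.02, beside 0.00 over all genes. Irs2, an adaptor that links the receptors to PI3K, was higher at 1799 ± 41.2 against 1551 ± 26.7 (log2 difference 0.21, SE 0.05, limma adjusted p = 0.0479). Akt2, the AKT kinase best known from insulin action, was at 1795 ± 105 against 1414 ± 66.8 (0.34, SE 0.06, adjusted p = 0.0208). Pik3r1, the main regulatory subunit of PI3K, was lower at 1522 ± 53.3 against 2071 ± 203 (-0.44, SE 0.08, adjusted p = 0.0178).

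The kinase gene Pdpk1, whose product activates AKT, was at 2414 ± 80.6 in the mutant against 2861 ± 91.9 in the control (log2 difference -0.25, SE 0.05, limma adjusted p = 0.0328). Foxo3, a transcription factor that AKT keeps out of the nucleus, was at 1060 ± 66.1 against 1355 ± 74.4 (-0.35, SE 0.07, adjusted p = 0.0258). For all 5 genes the libraries of the groups did not overlap. That held for 8 of the 32 tested genes of the list and for 15.7% of all genes tested. The 5 were picked by the fit to the same libraries, so their separation is no separate evidence. The calls were less stable than those of the binding proteins. The number of the list past the threshold was 0 without Nestin;BrafKE/+ replicate 1, without its replicate 3, without Braf+/+ replicate 4, without both Braf+/+ libraries high in choroid plexus genes, and with 4 name prefixes in place of the 3 series. With 1 library left out at a time, Irs2 passed in 0 of 9 fits. In the fits without Braf+/+ replicate 4, series B held no control.

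The insulin receptor gene Insr had values of 1100 ± 47.9 and 1097 ± 60.3 (log2 difference 0.00, SE 0.07, limma adjusted p = 0.980). For the adaptor gene Irs1 they were 311 ± 43.9 and 315 ± 17.9 (-0.03, SE 0.12, adjusted p = 0.932), and the sign of both differences turned under some of the alternative fits. Pappa, the gene of the protease that cuts IGFBP4, was low at 26.9 ± 5.62 and 23.1 ± 10.6 (0.31, SE 0.39, adjusted p = 0.718). None of the 14 tested proteases and extracellular partners of the binding proteins passed the threshold, and in the limma fit 2 were under 0.05 before adjustment. Among 10 tested other genes with an IGFBP domain 0 passed and 3 had an unadjusted p under 0.05, and among 9 of the growth hormone axis 0 passed and 1 did. For 10 genes that control Igf2 RNA or are imprinted like Igf2, 0 passed and 2 had an unadjusted p under 0.05. Over all genes tested, 18.5% had an unadjusted p under 0.05. Igfals, which encodes a partner of IGFBP3 in blood, Igfbp1 and H19, the imprinted neighbour of Igf2, were not analysed here.

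**Figure D5:**
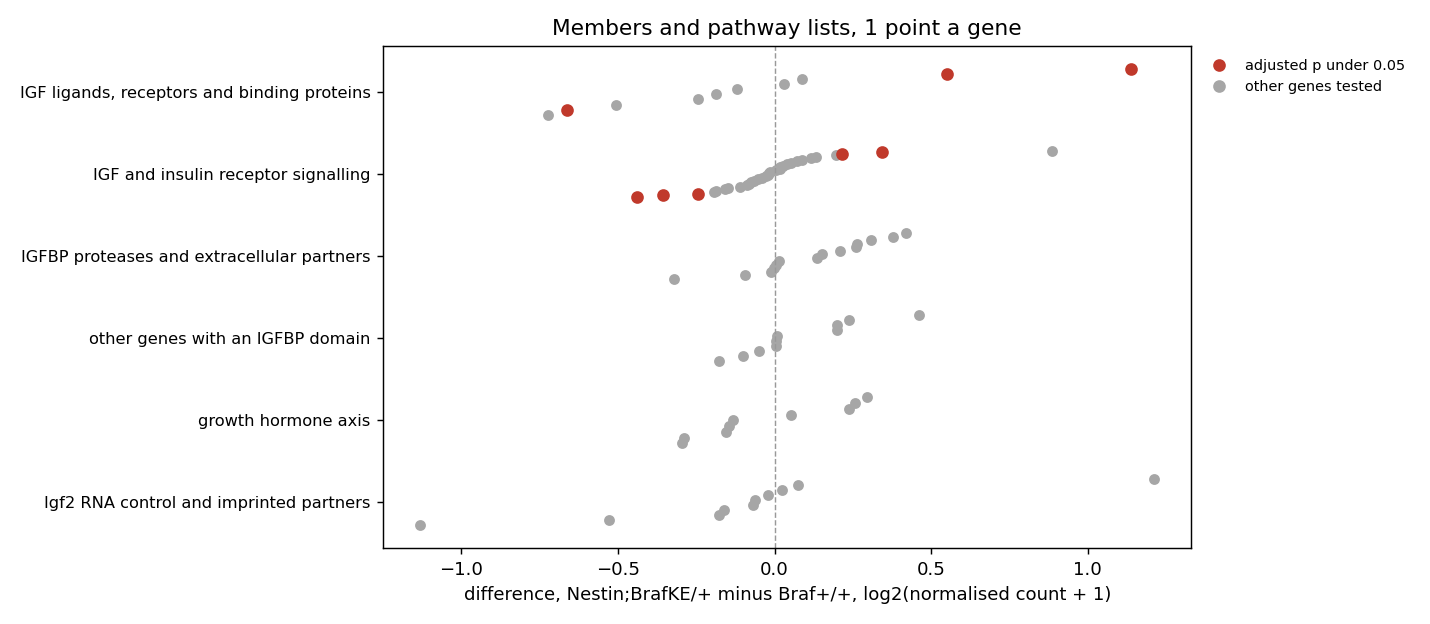
Difference between the groups (Nestin;BrafKE/+ minus Braf+/+ on the log2(normalised count + 1) scale) of every tested gene of the family and of 5 pathway lists, 1 point a gene, with red for an adjusted p under 0.05. Red points are 3 of the 10 members and 5 of the 32 signalling genes, and the other 4 lists hold none.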

How the data were processed

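Hippocampal RNA of 4 Nestin;BrafKE/+ and 5 Braf+/+ mice was sequenced as stranded mRNA libraries. The authors trimmed reads with Trim Galore, aligned them with STAR to GRCm39, quantified genes with Salmon and normalised with DESeq2, and the deposited signal is a normalised count per gene, already adjusted for batches, so raw depth is not known and no count test was run. Library totals were 19551300 to 20091500. All value columns were used. Values were tested as log2(value + 1) in limma 3.58.1 (R 4.3.3) with a mean-variance trend, for genes with a mean of at least 10, with genotype and series of library names as terms, two-sided, and Benjamini-Hochberg adjustment over 16196 genes (threshold 0.05). The script was tested on simulated data. Since batches were removed before deposit, the residual spread may be too small. The labels give the libraries as replicates, and p-values measure the spread between them. List levels were compared by exact permutation within series. Gene positions, transcript lengths and sequences came from the GENCODE annotation of GRCm39. The members and lists were chosen with earlier results of these data known. All members were named, with every pathway gene past the threshold, up to 8 a list, and Insr, Irs1, Irs2, Igfals, Pappa and H19, plus the 3 genes most like each ligand. Alternatives were other pseudocounts, filters, scalings, terms and weights, each library left out, and 2 fits without libraries extreme in choroid plexus genes that were chosen after seeing the data.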

Additional observations from a re-analysis of the deposited data

How the results depend on the processing

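Igfbp4 and Igfbp6 passed under all 13 settings other than single libraries left out (adjusted p from 0.000669 to 0.0273 and from 4.97e-05 to 0.0308), and Igfbp5 under 12 of 13 (from 0.000237 to 0.0550). Without the series term 2260 genes were called in all, with 6 members, 8 signalling genes, 1 protease or partner, 2 genes with an IGFBP domain, 1 of the growth hormone axis and 2 of the imprinted list. With 4 name prefixes as the term the counts were 165 genes and 0 signalling genes, and Insr was at -0.0194. Array weights gave 258 and 3. Without both controls highest in choroid plexus genes, chosen after seeing the data, no control of series B was left. The counts were then 58 and 0, and Igf2 (0.32), Igfbp7 (0.0348), Irs1 (0.0673) and Pappa (-0.13) changed sign. Without the libraries highest and lowest in choroid plexus genes, also chosen afterwards, they were 222 and 1, with 1 gene of the imprinted list. The cause of these shifts was not tested. Leaving out each library in turn gave 42 to 371 genes, 1 to 3 members, 0 to 4 signalling genes and 0 to 1 of the imprinted list, with 0 to 0 for the other 3 lists. Log2 differences then ran from -0.66 to -0.28 for Igf1, from -0.48 to -0.02 for Igf2, from -0.92 to -0.57 for Igfbp2, from -0.0569 to 0.0833 for Igf1r, from -0.0504 to 0.0888 for Insr and from -0.11 to 0.0543 for Irs1.

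Replicate numbers are shared by the groups. Deviations of same-numbered libraries had correlations of mixed sign (r = -0.39, -0.08, 0.07 and 0.41 for replicates 1 to 4). Those of differently numbered libraries were not set beside them. With no common sign, same-numbered libraries were not taken as pairs. A replicate block in place of the series term called 1405 genes, 3 members, 6 signalling genes, 1 protease or partner and 1 gene of the growth hormone axis, with Insr at -0.0057. The number of reads behind each value is not known.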

Other observations

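Of the imprinted genes listed with Igf2, 2 had wide differences that did not pass the threshold, and both were singled out after their values were seen. Dlk1, a paternally expressed growth regulator, was at 496 ± 129 in Nestin;BrafKE/+ and 236 ± 138 in Braf+/+ (log2 difference 1.21, SE 0.39, limma adjusted p = 0.126). Cdkn1c, a maternally expressed cell cycle inhibitor, was at 90.1 ± 29.6 and 201 ± 70.3 (-1.13, SE 0.34, adjusted p = 0.107).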
